A study of Mus musculus with 15 samples.

Results

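Panendothelial cell antigen is a surface antigen of the cells that line blood vessels. Panendothelial antibody-high pixels were the tissue pixels of mouse embryo sections with the highest share of an antibody against it among their antibody counts. They were chosen from the antibody readout alone, as the 10% of tissue pixels with the largest share of that antibody among all antibody counts in each of 4 sections. This gave 575 of 5735 tissue pixels in the 4 sections, where 17046 tissue pixels were counted in all 11 transcript libraries. A tissue pixel was one whose transcript total reached 0.1 of the 95th percentile of its library. In these pixels the transcripts of the endothelial lineage, of the vascular basement membrane and of red cells were higher than in the other tissue pixels. Those of neurons and neural progenitors were lower. Of 9 mesenchyme and cartilage genes, 5 were higher as well and 1 was lower.

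The endothelium is the single layer of cells that lines all vessels and the heart. Its cells are held together by VE-cadherin (gene Cdh5) and PECAM-1 (gene Pecam1), and they grow under the control of vascular endothelial growth factor (VEGF) through receptors such as VEGFR2 (gene Kdr), and of angiopoietins through the receptor TEK. They lay down a basement membrane of collagen IV, laminins, nidogens and perlecan. In the midgestation embryo the vessels carry primitive red cells made in the yolk sac, and vessels from the surrounding plexus enter the neural tube. Antibodies sold against panendothelial cell antigen commonly bind PLVAP, the protein of fenestral and caveolar diaphragms. The labels give no clone, so the target was not established here.

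The sections compared here were all from mouse embryos at embryonic day 10, and the labels name no treatment, allele or strain for them. Frozen sections were barcoded in place by crossed microfluidic channels, so that each crossing, a pixel of 50, 25 or 10 µm, gave a count of transcripts and, in a second library, a count of 22 DNA-tagged antibodies. The 4 sections with both libraries were 50 µm replicate 1 (859 tissue pixels, 86 antibody-high), 50 µm replicate 3 (839 and 84), 25 µm replicate 1 (1766 and 177) and 10 µm replicate 2 (2271 and 228). A pixel is a small square of tissue that can hold several cells of different types or part of 1 cell, and the labels do not say whether the sections came from separate embryos. Pixels of a section are not replicates, so transcripts were summed per section over antibody-high and over other tissue pixels and compared over the 4 sections. The p-values speak for the spread between these sections only. In the fit over genes (edgeR), the variance of each gene was drawn toward a trend over all tested genes. A small p-value of a gene thus does not rest on its own 4 sections alone. Since the pixels are bulk mixtures, fewer cells of a type and less RNA per cell cannot be told apart in anything that follows.

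The antibody share itself, given per 10000 antibody counts, is a description of the choice. Its median in antibody-high against other pixels was 521 against 304 in 50 µm replicate 1, 316 against 176 in 50 µm replicate 3, 1524 against 321 in the 25 µm section and 541 against 210 in the 10 µm section. The ratio of these medians was 1.71 and 1.79 in the 50 µm sections, 4.75 at 25 µm and 2.58 at 10 µm. The lowest antibody-high pixel and the highest pixel left out lay close together in each section, at 456.4 and 454.5, 279.2 and 278.6, 1163 and 1159, and 423.3 and 422.0 counts per 10000. The shares thus ran on without a gap, and the 10% is a range of a continuous measure. A high share is not a high count. Ranking by panendothelial counts kept 16.3% and 20.2% of the antibody-high pixels in 50 µm replicates 1 and 3. It kept 70.1% at 25 µm and 38.6% at 10 µm.

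Depth differed between the classes. The antibody total per pixel is the denominator of the share. Its median was 1793 in antibody-high and 2716 in other pixels of 50 µm replicate 1, and 3418.5 and 4913 in 50 µm replicate 3. It was 1625 and 1407 in the 25 µm section, and 531.5 and 679 in the 10 µm section. The median transcript total per pixel was 8017 in antibody-high and 11662 in other pixels of 50 µm replicate 1, 8950 and 10958 in 50 µm replicate 3, 670 and 870 in the 25 µm section, and 1588 and 2186 in the 10 µm section. It was lower in the antibody-high pixels of all 4 sections, by a mean of -0.42 ± 0.11 on the log2 scale (SD, n = 4; exact two-sided sign-flip test, p = 0.125, the smallest that 4 sections can give). Summed over pixels, the antibody-high class held 818307, 808073, 123333 and 411710 transcripts, in the order in which the sections are listed above, and the other class 10529782, 9826661, 1440156 and 4887486. One count in the antibody-high sum of the 25 µm section was therefore 8.11 counts per 1000000 (CPM), and single genes there were the least precise.

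**Figure D1:**
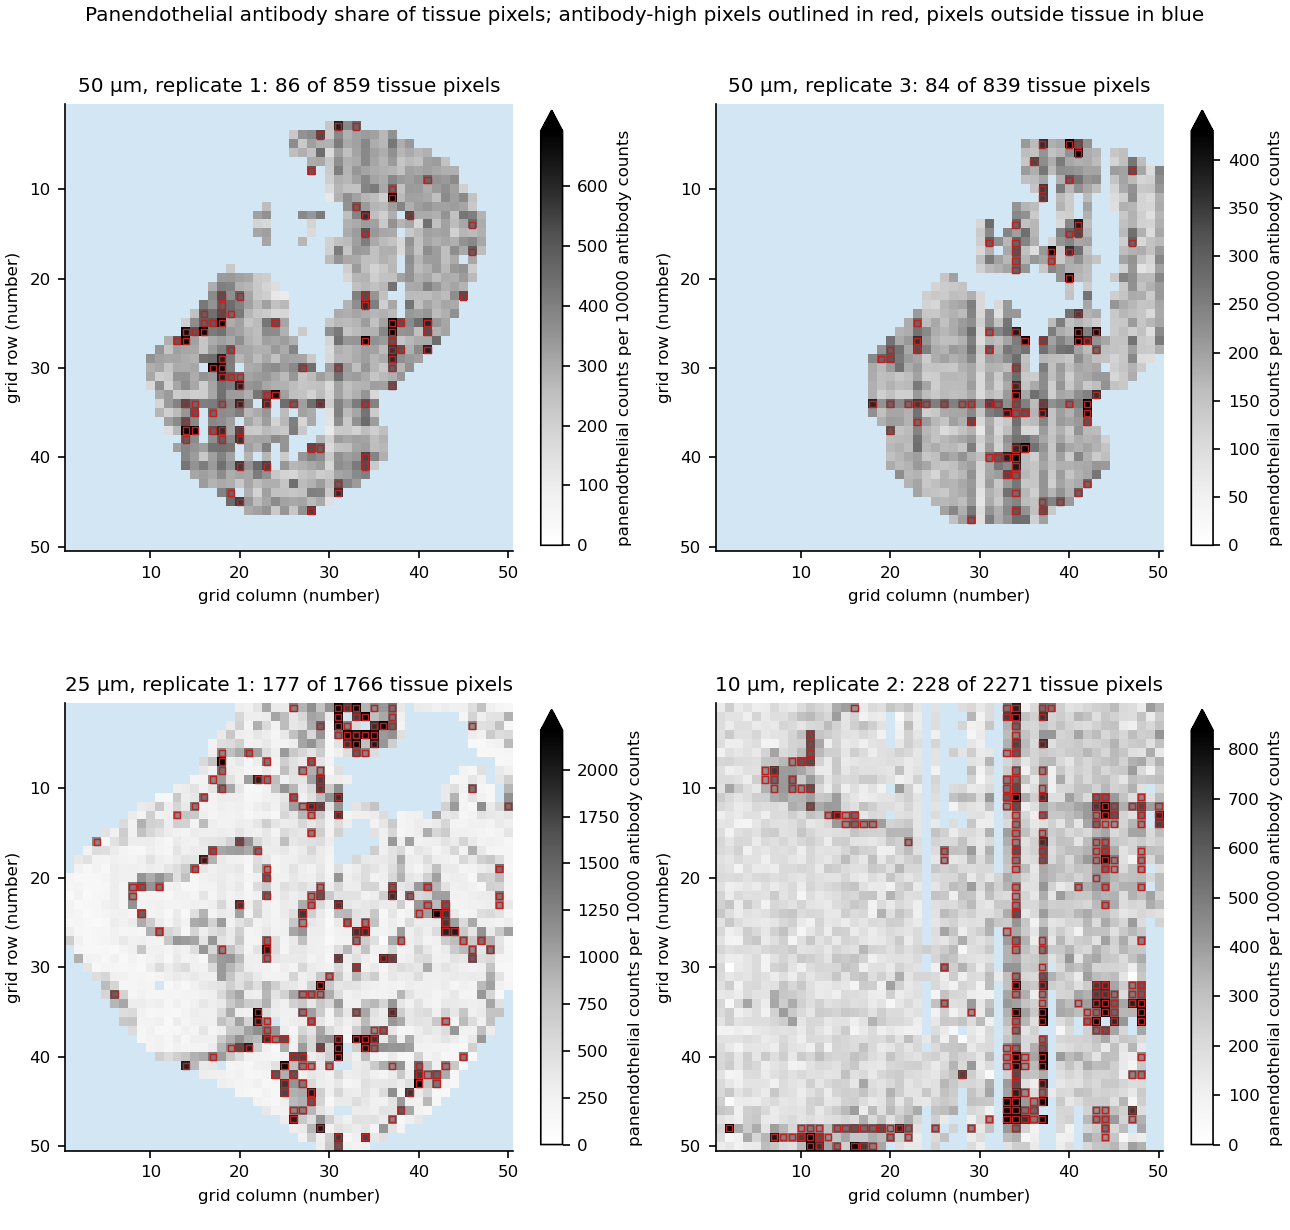
Maps of the 4 sections on the 50 by 50 barcode grid, with grid column and row numbers on the axes. Grey shows panendothelial counts per 10000 antibody counts (darker is higher, with a scale for each section), red squares mark the antibody-high pixels, and blue is outside the tissue. Antibody-high pixels form short strings and patches, and in the 10 µm section they also fill most of grid column 34 (40 of 50 tissue pixels).

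The antibody-high pixels lay next to each other more often than the others did, as the maps of the antibody share show. Of the grid neighbours of antibody-high pixels, 27.2%, 23.0%, 25.3% and 49.0% were themselves antibody-high in 50 µm replicate 1, 50 µm replicate 3, the 25 µm and the 10 µm section. Among the neighbours of other pixels the shares were 7.91%, 8.56%, 8.41% and 5.57%. The largest touching groups held 13, 9, 23 and 28 pixels. Some antibody-high pixels lay along single grid lines, and whether these follow the tissue was not tested. Grid row 34 and grid column 34 of 50 µm replicate 3 held 14 and 17 antibody-high pixels of 25 and 31 tissue pixels, and grid columns 34 and 37 of the 10 µm section held 40 and 28 of 50 and 45. In all, 38, 30, 0 and 134 antibody-high pixels lay on a grid line with over 30% of its tissue pixels antibody-high. In the 10 µm section the pan-endothelial list summed to 901 CPM in the antibody-high pixels on such lines and to 1684 CPM in those off them, against 385 CPM in other pixels off the lines. The same sums were 1314, 1113 and 494 CPM in 50 µm replicate 1 and 671, 908 and 370 CPM in 50 µm replicate 3. With all pixels on these lines left out, 17 of 18 tested pan-endothelial genes were called higher, with a median log2 fold change of 1.57.

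The 2 genes that define the label were both higher in the antibody-high pixels of every section. Cdh5, which encodes VE-cadherin, the adhesion molecule of endothelial junctions, had 81.9 CPM in antibody-high against 34.9 CPM in other pixels of 50 µm replicate 1, 64.4 against 23.9 CPM in 50 µm replicate 3, 81.1 against 23.6 CPM at 25 µm and 143 against 41.5 CPM at 10 µm. The antibody-high level was above the level of other pixels in all 4 sections, and the 2 classes did not overlap even across sections. The fitted change was 2.92-fold, a log2 fold change of 1.55 ± 0.18 (SE, n = 4 sections; edgeR quasi-likelihood test with Benjamini-Hochberg adjustment, adjusted p = 1.18e-08). Pecam1, which encodes the platelet and endothelial adhesion molecule CD31, had 30.6 against 15.1, 39.6 against 18.4, 48.6 against 27.1 and 48.6 against 14.5 CPM in the same order of sections. Here too the lowest antibody-high level exceeded the highest other level, and the change was 2.36-fold (log2 1.24 ± 0.24, edgeR adjusted p = 0.000390). The label therefore held by its markers in the 4 sections. Plvap, the diaphragm gene, had 50.1 against 21.3, 14.9 against 11.9, 64.9 against 18.1 and 31.6 against 12.5 CPM. It was higher in each section, least so in 50 µm replicate 3, with a log2 fold change of 1.16 ± 0.26 (edgeR adjusted p = 0.00283).

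Of 10504 genes tested, 515 were called at an adjusted p under 0.05 (4.90%), of which 364 were higher (3.47%) and 151 lower (1.44%) in antibody-high pixels. Every count of called list genes below stands beside these shares. The median log2 fold change over all tested genes was -0.022, and 435 of the 515 called genes had the same direction in all 4 sections. The count of calls fell to 244 without 50 µm replicate 1 and to 247 without 50 µm replicate 3, was 278 with DESeq2 and 250 when the top 5% of pixels were taken. It was 1 when pixels were ranked by panendothelial counts in place of the share, and 43 when the top 10% was taken within each of 5 equal bins of pixels by globin share.

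All 19 of the 24 pan-endothelial genes that passed the filter on low counts were higher, with log2 fold changes from 1.02 to 1.85 and a median of 1.45, beside -0.022 over all genes and 3.47% of them called higher. With no filter on low counts, 19 of 24 were called higher. The summed level of all 24 genes, which no filter touched, was 1193 CPM in antibody-high and 487 CPM in other pixels of 50 µm replicate 1, 807 and 369 CPM in 50 µm replicate 3, 1541 and 461 CPM at 25 µm and 1256 and 396 CPM at 10 µm. It was 2.19 to 3.34 times as high in the antibody-high pixels, and the 2 classes did not overlap. In 12 of the 19 tested genes the lowest antibody-high level lay above the highest level of other pixels, which held for 1.96% of all genes tested. Ranking within 5 bins of globin share left 10 of the 19 called, with a median log2 fold change of 1.08, and ranking by panendothelial counts left 0 of 23 called, with a median of 0.46. Ranking within 5 bins of transcript total, which brought the depth difference of the classes to a mean log2 of -0.073, left 18 of 21 called with a median of 1.26.

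Among the receptors of the list, Kdr had 120 against 42.3, 75.5 against 31.1, 195 against 50.7 and 129 against 41.7 CPM in 50 µm replicate 1, 50 µm replicate 3, the 25 µm and the 10 µm section. All 4 antibody-high levels lay above all 4 other levels, and the log2 fold change was 1.58 ± 0.16 (edgeR adjusted p = 3.25e-10). Flt1, the receptor VEGFR1, changed by 1.55 ± 0.18 on the log2 scale, and the 25 µm section stood highest, with 195 against 31.9 CPM. The angiopoietin receptor Tek and its partner Tie1 rose by log2 1.60 ± 0.27 and 1.67 ± 0.23. Robo4, a guidance receptor of vessels, rose by 1.61 ± 0.31, and Cd93, a lectin-domain receptor of endothelial cells, by 1.38 ± 0.17. Vwf, the clotting factor carried by endothelial cells and platelets, had the largest change of the list, 1.85 ± 0.27, with 72.1 against 21.6, 28.5 against 12.7, 73.0 against 4.86 and 26.7 against 6.34 CPM. Its antibody-high levels all lay above its other levels. Emcn, a sialomucin of capillaries and veins, changed by 1.75 ± 0.21 and was least separated in 50 µm replicate 3, with 28.5 against 16.7 CPM. Esam, an adhesion molecule of endothelial cells and platelets, was higher in 3 of 4 sections (log2 1.21 ± 0.28, edgeR adjusted p = 0.00329), and in the 25 µm section it had 1 count in the antibody-high pixels, 8.11 CPM against 9.72. The 5 genes that did not pass the filter were Cldn5, Icam2, Clec14a, Gpr182 and Sox18. Of these, Icam2 had 19.6 against 6.46, 12.4 against 5.39, 8.11 against 8.33 and 14.6 against 7.57 CPM, and Gpr182 had at most 1 antibody-high count in a section.

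The promoters of genes from 3 of the groups are shown because their transcripts moved together in these pixels. The sequences are RefSeq windows of GRCm38.p6, from 250 bases before to 50 bases after the start of the gene, read 5′ to 3′ on the gene's strand. Capitals mark matches to AGGAAG or CGGAAG, core sequences of ETS factors, and to AGATAA or TGATAA, core sequences of GATA factors, on either strand. None of the searched motifs overlapped another in the windows shown.
Tie1, chr4:118489800-118490099, minus strand: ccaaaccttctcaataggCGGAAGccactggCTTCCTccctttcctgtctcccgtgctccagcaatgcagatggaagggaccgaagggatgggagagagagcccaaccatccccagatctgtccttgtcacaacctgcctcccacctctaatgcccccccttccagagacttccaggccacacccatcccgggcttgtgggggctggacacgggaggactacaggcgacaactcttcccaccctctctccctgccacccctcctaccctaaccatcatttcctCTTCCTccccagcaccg
Flt1, chr5:147725962-147726261, minus strand: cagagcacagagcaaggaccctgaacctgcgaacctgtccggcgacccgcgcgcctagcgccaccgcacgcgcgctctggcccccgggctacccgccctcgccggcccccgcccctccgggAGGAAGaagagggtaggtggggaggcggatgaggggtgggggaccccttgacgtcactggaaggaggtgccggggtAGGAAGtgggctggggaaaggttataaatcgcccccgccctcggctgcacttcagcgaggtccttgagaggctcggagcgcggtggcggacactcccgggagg
Emcn, chr3:137340828-137341127, plus strand: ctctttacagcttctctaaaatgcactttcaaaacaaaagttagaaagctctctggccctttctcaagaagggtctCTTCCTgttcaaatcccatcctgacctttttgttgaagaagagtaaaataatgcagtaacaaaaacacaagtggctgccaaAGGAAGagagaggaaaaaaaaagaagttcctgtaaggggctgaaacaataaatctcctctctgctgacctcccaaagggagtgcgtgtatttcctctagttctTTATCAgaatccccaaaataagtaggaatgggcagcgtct
Kdr, chr5:75978406-75978705, minus strand: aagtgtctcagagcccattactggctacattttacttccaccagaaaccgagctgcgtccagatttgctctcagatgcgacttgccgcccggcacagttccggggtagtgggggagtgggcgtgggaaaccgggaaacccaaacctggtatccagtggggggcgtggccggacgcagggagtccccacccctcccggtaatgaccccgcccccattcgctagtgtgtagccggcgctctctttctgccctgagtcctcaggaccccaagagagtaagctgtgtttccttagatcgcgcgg
Hba-x, chr11:32276350-32276649, plus strand: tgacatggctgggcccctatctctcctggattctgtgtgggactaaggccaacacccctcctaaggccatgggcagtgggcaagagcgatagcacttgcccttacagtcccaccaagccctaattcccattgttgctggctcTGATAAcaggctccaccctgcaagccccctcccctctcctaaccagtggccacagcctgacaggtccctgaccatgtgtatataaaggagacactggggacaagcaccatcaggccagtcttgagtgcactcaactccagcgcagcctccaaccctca
Col4a1 and Col4a2, shared stretch chr8:11312777-11312854, written on the plus strand: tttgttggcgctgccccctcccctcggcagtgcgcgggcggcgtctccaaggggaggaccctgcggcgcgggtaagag

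The Tie1 window held 3 ETS matches, those of Flt1 and Emcn held 2 each, the Emcn window also held 1 GATA match, and the Kdr window held neither. Windows were found for 10 of the 19 called pan-endothelial genes, 14 windows in all, and 9 of them (64.3%) held an ETS match, beside 46.5% of all 32851 windows and 53.6% of the windows of tested genes. A GATA match was held by 4 of the 14 (28.6%). Of the 7 windows of called red cell genes, 6 (85.7%) held a GATA match, as the Hba-x window does, and 3 (42.9%) an ETS match. The Hba-a1 and Hba-a2 windows, counted separately here, are nearly the same sequence, and each held 1 GATA and 1 ETS match. GATA matches were in 18.6% of all windows and 9.39% of those of tested genes. Of the 6 windows of called basement membrane genes, 1 (16.7%) held an ETS match. Col4a1 and Col4a2 lie head to head, and their windows share the 78 bases shown, which hold none of these letters. A match is a run of letters and not a site.

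In the list of VEGF and angiopoietin ligands and receptors, 5 of 9 tested genes were higher and none lower, with a median log2 fold change of 0.76. All 5 were receptors, namely Kdr, Flt1, Tek, Tie1 and Nrp1. All but Nrp1 were already counted in the pan-endothelial list. Nrp1, the co-receptor neuropilin-1, had 91.7 against 69.3, 125 against 77.7, 162 against 67.4 and 65.6 against 33.1 CPM, a log2 fold change of 0.76 ± 0.16 (edgeR adjusted p = 0.000818). It was higher in each section, while its levels in the 2 classes overlapped across sections. The ligand Vegfa did not pass the test (log2 -0.48, adjusted p = 0.562), nor did Vegfb (-0.04, adjusted p = 0.948) or the angiopoietin Angpt1 (0.47, adjusted p = 0.602). Vegfa levels were 12.2 against 16.7, 9.90 against 16.7, 32.4 against 30.6 and 9.72 against 16.2 CPM. The transcript of the co-receptor Nrp2 stood at 0.49 with an adjusted p of 0.0910.

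Of the transcription factors known from endothelial cells, 8 of 12 tested were higher and none lower, with a median of 1.04. Ets1, an ETS factor, had 59.9 against 23.6, 45.8 against 21.8, 122 against 27.1 and 65.6 against 19.2 CPM and changed by 1.51 ± 0.20 (edgeR adjusted p = 6.42e-07). Its levels did not overlap between the classes. The ETS factors Erg (1.45 ± 0.37), Elk3 (1.21 ± 0.22) and Fli1 (1.11 ± 0.19) also rose, as did Lmo2, a bridging protein of blood and vessel progenitors (0.99 ± 0.24), the MADS-box factor Mef2c (0.83 ± 0.22) and the forkhead genes Foxc1 (1.08 ± 0.18) and Foxc2 (0.99 ± 0.24). Erg, already counted in the pan-endothelial list, was nearly level in 50 µm replicate 3, with 7.43 against 7.02 CPM. The flow-responsive factor Klf2 stood at 1.12 and missed the threshold (adjusted p = 0.0997).

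Of 6 tested arterial genes, 2 were higher, the gap junction genes Gja4 (log2 1.15 ± 0.28) and Gja5 (1.77 ± 0.34). Gja5 had 28.1 against 8.55, 21.0 against 6.92, 32.4 against 1.39 and 17.0 against 7.37 CPM. All 4 antibody-high levels were above all 4 others, and the 25 µm pair had the widest gap. That pair rests on 4 antibody-high and 2 other counts. Of 5 venous and lymphatic genes, 1 was higher, the apelin receptor Aplnr (1.19 ± 0.24), while Nr2f2, the venous identity factor, stood at 0.08 (adjusted p = 0.833) and Prox1, the lymphatic factor that is also made outside vessels, at -0.70 (adjusted p = 0.0930). Lyve1 and Stab2, found in lymphatic and sinusoidal cells, had at most 4 antibody-high counts in any section and were not tested. Of 6 genes of brain endothelium, including Slc2a1 and Mfsd2a, none was called in either direction (median 0.26). Of 5 tested endocardial genes, 4 were higher. They were Plxnd1, a semaphorin receptor (1.46 ± 0.18), the matrix gene Hapln1 (1.29 ± 0.18), Cgnl1 (1.17 ± 0.23) and the natriuretic peptide receptor Npr3 (1.08 ± 0.30, higher in 3 of 4 sections). Postn stood at 0.68 (edgeR adjusted p = 0.431) and was higher in 1 of 4 sections. Nfatc1, Gata4 and Tmem100 of the same list were not tested, with at most 12 antibody-high counts in any section. The summed endocardial list had its largest ratio, 2.83, in the 10 µm section, where the heart muscle list had 14 antibody-high counts. Whether the called genes mark endocardium was not tested. Whether the arterial, venous and lymphatic, brain and endocardial lists differed from each other was not tested.

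Of the caveola and diaphragm genes, 4 of 6 tested were higher: Plvap, the cavin genes Ptrf (1.29 ± 0.27) and Sdpr (1.25 ± 0.36), and Ehd2, an ATPase of the caveolar neck (1.51 ± 0.32). Plvap was already counted in the pan-endothelial list. Caveolin-1 (gene Cav1) did not pass the filter. It had 12.2 against 4.46, 9.90 against 4.88, 16.2 against 4.17 and 2.43 against 2.25 CPM, from 10, 8, 2 and 1 antibody-high counts.

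All 9 vascular basement membrane genes were tested and all 9 were higher, with a median log2 fold change of 1.15. Col4a1, a chain of collagen IV, had 826 against 283, 739 against 330, 819 against 393 and 855 against 338 CPM. The 4 antibody-high levels fell between 739 and 855 CPM and did not overlap the other levels, and the change was 2.54-fold (log2 1.35 ± 0.08, edgeR adjusted p = 5.94e-17). Its partner chain Col4a2 had 308 against 129, 151 against 83.5, 292 against 133 and 294 against 132 CPM, a change of 1.15 ± 0.11. The laminin chains Lama4 (1.34 ± 0.16), Lamb1 (1.22 ± 0.15) and Lamc1 (0.99 ± 0.19), the nidogen Nid1 (1.29 ± 0.14), perlecan (gene Hspg2, 1.01 ± 0.16), Sparc (0.75 ± 0.08) and fibronectin (gene Fn1, 0.38 ± 0.10) followed. Lamc1 was not higher in the 25 µm section (32.4 against 34.7 CPM) and Fn1 not in the 10 µm section (206 against 220 CPM). Within 5 bins of globin share, 6 of the 9 were called. Which cells of the pixels made these transcripts was not tested. Mural cells, which wrap vessels, had 3 of 4 tested genes higher, Pdgfrb (1.16 ± 0.19), Acta2 (1.06 ± 0.19) and Tagln (1.36 ± 0.23), whereas Notch3 stood at -0.24 (adjusted p = 0.621) and the pericyte gene Rgs5 was not tested, with 0 to 17 antibody-high counts.

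All 10 red cell genes were higher, with a median of 1.28. Hba-x, the embryonic alpha-like globin of primitive red cells, had 13123 against 4042, 6919 against 2584, 8181 against 3734 and 9810 against 3520 CPM. All antibody-high levels were above all others, and the change was 2.79-fold (log2 1.48 ± 0.07, edgeR adjusted p = 5.16e-17). The embryonic beta-like globins Hbb-bh1 and Hbb-y changed by 1.16 ± 0.09 and 1.18 ± 0.10. Hba-a1 with Hba-a2, and Hbb-bt with Hbb-bs, are near-identical copies whose reads the counting could split either way, and they changed by 1.31, 1.32, 1.20 and 1.28. Outside the globins, the heme enzyme Alas2 rose by 1.34 ± 0.16 and the anion exchanger Slc4a1 by 1.29 ± 0.14. The summed red cell list was 65876 against 22950, 31904 against 15346, 39162 against 19026 and 50844 against 20255 CPM, a ratio of 2.06 to 2.87. The 2 lists were not raised alike over other pixels in every group of antibody-high pixels. The largest touching group of the 25 µm section had 14331 CPM of red cell transcripts, under the 19026 CPM of other pixels. It had 1303 CPM of the pan-endothelial list, against 461 CPM in other pixels. This group was 23 pixels with 12281 transcripts in all, so its pan-endothelial sum rests on few counts. It also held 42016 CPM of heart muscle transcripts. In 50 µm replicate 3 the antibody-high pixels on grid lines with over 30% of tissue pixels antibody-high had 17351 CPM of red cell transcripts and those off them 42781 CPM. Their pan-endothelial sums, 671 and 908 CPM, were also lower on the lines. The other pixels on those lines had 17746 CPM of red cell transcripts and 356 CPM of the pan-endothelial list. Where pixels were ranked within 5 bins of globin share, 1 of the 10 red cell genes was called (median 0.18). The bins were made from the globin genes of this same list, so little globin difference could be left. That ranking therefore cannot show whether the 2 lists part. The pan-endothelial median in it was 1.08.

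Of 4 platelet genes, 3 were higher, led by Itga2b, the integrin CD41 (1.802 ± 0.40), which had 12.2 against 6.08, 13.6 against 5.90, 48.6 against 8.33 and 21.9 against 1.64 CPM from 10, 11, 6 and 9 antibody-high counts. Its levels did not overlap between classes. Of 5 macrophage genes, 1 was higher, the complement gene C1qb (0.93 ± 0.25), and not in the 10 µm section (19.4 against 25.2 CPM). Ptprc, the pan-leukocyte CD45, had 2, 1, 0 and 0 antibody-high counts. The macrophage list summed to 102 to 119 CPM in antibody-high and 68.9 to 92.7 CPM in other pixels.

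**Figure D2:**
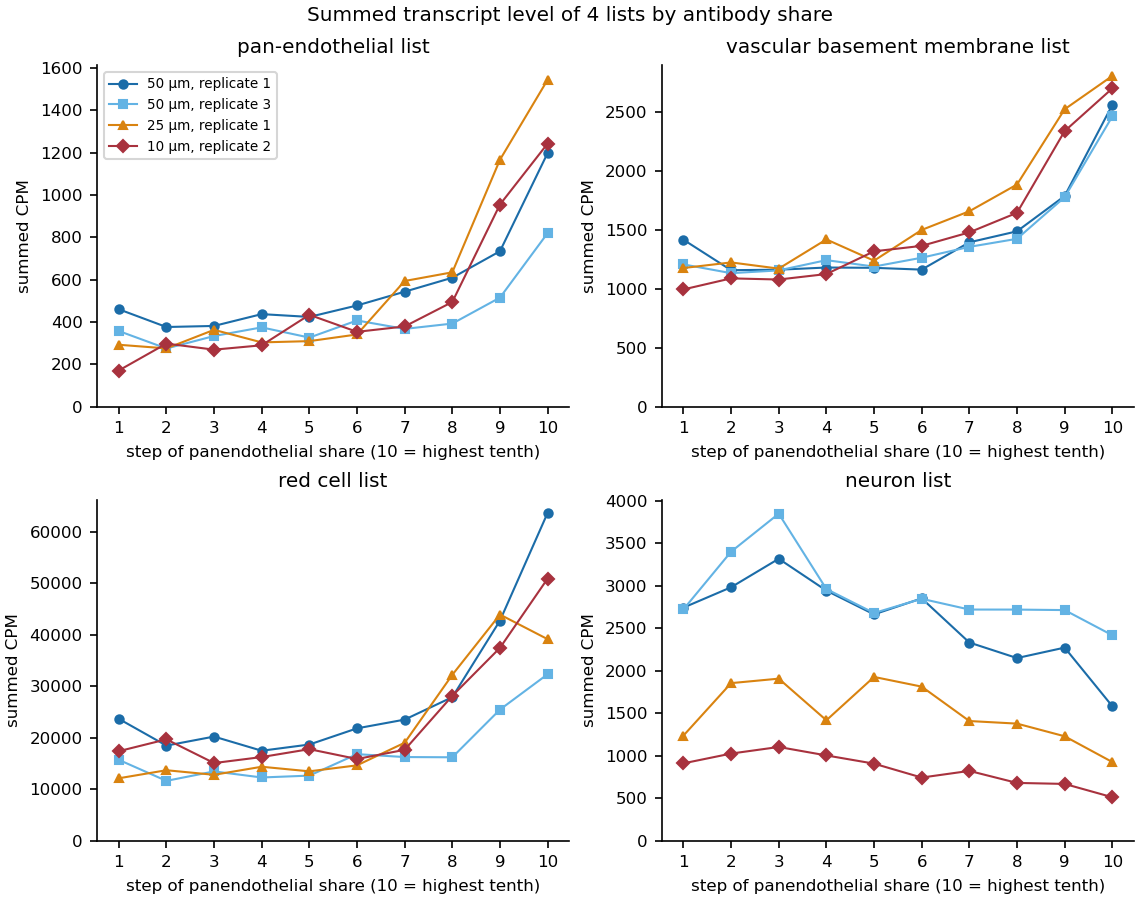
Summed CPM of 4 gene lists (y axis, from 0) in 10 equal steps of tissue pixels by panendothelial share (x axis, 10 is the highest), with 1 line for each section. The pan-endothelial list stays between 171 and 478 CPM in steps 1 to 6 and reaches 820 to 1545 CPM in step 10, while the neuron list is lower in step 10 than in step 1 in each section.

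Sorting all tissue pixels into 10 steps of antibody share showed where the levels moved. In 50 µm replicate 1 the pan-endothelial sum was 376 to 478 CPM in steps 1 to 6, 734 CPM in step 9 and 1198 CPM in step 10. In the 25 µm section it was 275 to 363 CPM in steps 1 to 6, 1167 CPM in step 9 and 1545 CPM in step 10. The step just under the antibody-high pixels was therefore already raised, most at 25 and 10 µm (955 CPM in step 9 at 10 µm). Across single pixels the rank relation of antibody share and endothelial share was weak, with a Spearman rho of 0.27 to 0.30 over 839 to 2271 pixels that share a library and its depth. For the red cell list it was 0.27 to 0.37, above the endothelial rho in the 25 and 10 µm sections.

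In pixels next to an antibody-high pixel the pan-endothelial sum was 626, 487, 580 and 798 CPM in 50 µm replicate 1, 50 µm replicate 3, the 25 µm and the 10 µm section. At 3 or more grid steps it was 432, 310, 424 and 280 CPM. The level fell with each further step in all 4 sections, and the 10 µm section, whose steps are the shortest in the tissue, had the smallest proportional fall over the first step and the lowest level at 3 or more.

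**Figure D3:**
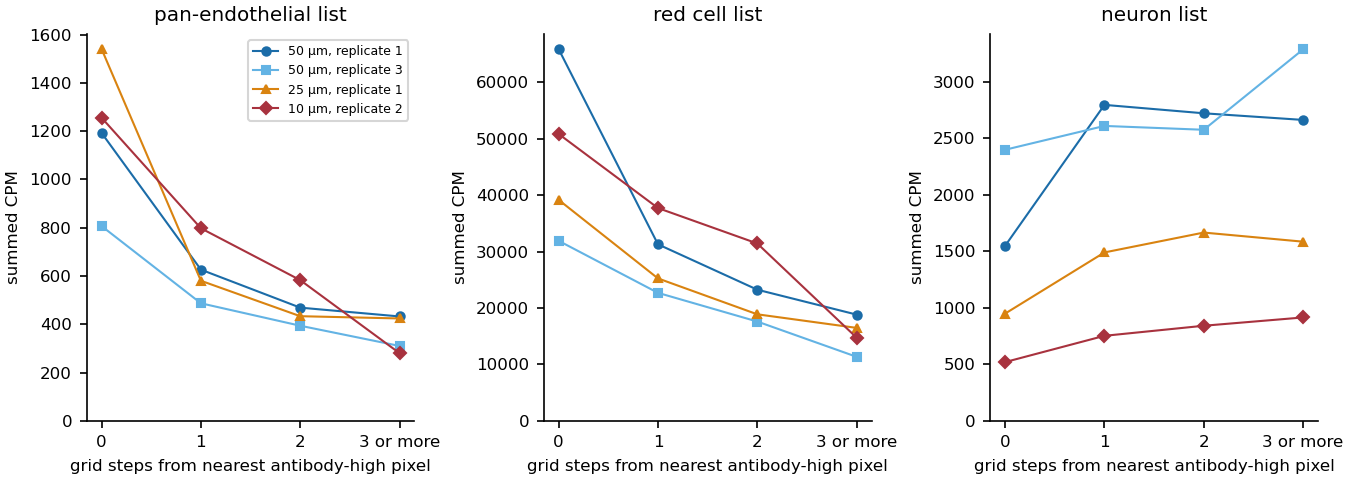
Summed CPM (y axis, from 0) of the pan-endothelial, red cell and neuron lists against the distance to the nearest antibody-high pixel in grid steps (0 is the antibody-high pixels themselves), with 1 line for each section. The pan-endothelial list falls from 807 to 1541 CPM at 0 to 280 to 432 CPM at 3 or more steps, and the neuron list is lowest at 0 in each section.

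Neural transcripts were lower in the antibody-high pixels. Of 8 neuron genes, 7 fell (median log2 -0.52), beside 1.44% of all genes called lower. Elavl3, an RNA-binding protein of neurons, had 121 against 204, 257 against 371, 130 against 262 and 55.9 against 137 CPM (log2 -0.72 ± 0.12, edgeR adjusted p = 2.91e-05). It was lower in each section, and the levels of the classes overlapped across sections. Stmn2 (-0.64 ± 0.11), Dcx (-0.56 ± 0.13), Nefm (-0.53 ± 0.13) and Tubb3 (-0.50 ± 0.10), all of the neuronal cytoskeleton, fell as well. Without 50 µm replicate 1, 3 of the 8 were called. Of 8 neural progenitor genes, 5 fell: Hes5, a Notch target (-0.88 ± 0.15), Fabp7 of radial glia (-0.75 ± 0.12), the receptor Notch1 (-0.75 ± 0.19), the eye and forebrain factor Pax6 (-0.74 ± 0.14) and Sox2 (-0.53 ± 0.13). Nes and Vim, intermediate filaments that endothelial and mesenchymal cells also make, stood at -0.20 and -0.032 and did not pass. Within 5 bins of globin share, 0 of the 8 progenitor genes and 1 of the 8 neuron genes were called by edgeR, with medians of -0.30 and -0.30.

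Of 9 mesenchyme and cartilage genes, 5 were higher: the fibrillar collagens Col3a1 (1.15 ± 0.08), Col1a2 (0.86 ± 0.10) and Col1a1 (0.81 ± 0.16), Twist1 (0.92 ± 0.25) and Pdgfra (0.74 ± 0.18). Col1a1 (105 against 149 CPM) and Twist1 (16.2 against 35.4 CPM) were lower in the 25 µm section, from 13 and 2 antibody-high counts. The cartilage and neural factor Sox9 fell (-0.41 ± 0.12). Col3a1 had 1009 against 430, 590 against 270, 762 against 490 and 1030 against 439 CPM and did not overlap between classes. Among muscle and somite genes Des was higher (1.25 ± 0.35) and Pax3 lower (-1.16 ± 0.24), each in 3 of 4 sections. Des, which heart muscle also makes, had 195 against 38.2 CPM at 25 µm and at most 12.4 CPM in the antibody-high pixels elsewhere.

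Heart muscle set the 25 µm section apart. The heart list summed to 5084 against 926 CPM there, a ratio of 5.49, whereas the ratio was 0.795, 1.38 and 1.83 in 50 µm replicate 1, 50 µm replicate 3 and the 10 µm section. None of the 7 tested heart genes was called (edgeR, median 0.80), and 3 of 7 were called without 50 µm replicate 1. The largest touching group of the 25 µm section, 23 pixels, held 42016 CPM of heart transcripts and the other 154 antibody-high pixels 1000 CPM, close to the 926 CPM of other pixels. The pan-endothelial list summed to 1303 and 1567 CPM in these 2 sets, out of 12281 and 111052 transcripts. Without the 25 µm section the median log2 fold change of the pan-endothelial list was 1.35, and 20 of 23 tested genes were called higher. Liver markers were near 0, with 0 to 2 antibody-high counts of Afp and of Alb in each section. Ttr, which liver and choroid plexus secrete, was called higher with opposite directions, 191 against 130 and 288 against 112 CPM in the 50 µm sections but 48.6 against 72.9 and 4.86 against 12.3 CPM in the finer ones. Of 8 epithelial genes only Krt18 was tested, and it was not called.

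Among genes outside the lists, the largest rise with the same direction in all 4 sections was that of Epb42. Epb42, a protein of the red cell membrane skeleton, had 28.1 against 6.17, 21.0 against 5.29, 56.8 against 16.7 and 26.7 against 9.82 CPM, a 3.82-fold change (log2 1.93 ± 0.30). Ermap, an erythroid membrane protein, changed by 1.82 ± 0.22. She, an SH2 adaptor (1.89 ± 0.36), Fgd5, an exchange factor of endothelial cells (1.78 ± 0.26), Adcy4, an adenylyl cyclase (1.74 ± 0.32), Cyyr1 (1.73 ± 0.33), the hyaluronan receptor Cd44 (1.79 ± 0.34) and the ectoenzyme Cd38 (1.77 ± 0.39) followed. The largest falls were led by Ptprz1, a receptor phosphatase of neural progenitors and glia, with 69.7 against 124, 75.5 against 165, 81.1 against 111 and 48.6 against 272 CPM (log2 -1.23 ± 0.19). All 4 of its antibody-high levels lay below all 4 others, as held for 1.29% of tested genes. Fzd8, a Wnt receptor (-1.18 ± 0.37), Nek4 (-1.002 ± 0.29), Megf10 (-0.996 ± 0.24), Ttyh1 (-0.98 ± 0.21), the Notch ligand Dll1 (-0.98 ± 0.24), Syt7 (-0.98 ± 0.30), the cadherin Celsr2 (-0.97 ± 0.13), the neural factor Pou3f2 (-0.96 ± 0.15), Kif21a (-0.91 ± 0.14), Elovl2 (-0.91 ± 0.25) and the integrin Itgb8 (-0.88 ± 0.21) made up the rest. Megf10 and Syt7 had 0 antibody-high counts in the 25 µm section.

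The other 21 antibodies were read in the same pixels, with no test, because they enter the denominator of the antibody share. Given as shares of the antibody counts without the panendothelial column, ESAM was higher in the antibody-high pixels of 4 of 4 sections (log2 0.60, 0.04, 1.04 and 1.11), as were CD102-ICAM2 (0.18, 0.44, 1.06 and 0.68) and CD41-ITGA2B (0.31, 0.23, 0.82 and 0.41). All 3 are surface proteins of endothelial cells or platelets. The KDR antibody differed little outside the 25 µm section (0.12, -0.08, 0.96 and 0.01), although the Kdr transcript was higher in all 4. The antibody ErythroidCells-LY76, which binds a red cell antigen, was likewise near level or lower (0.11, 0.03, -0.55 and -0.11), while the red cell transcripts were higher in all 4 sections. The top 10% of pixels by the LY76 antibody did have more red cell transcripts than other tissue pixels (log2 0.66, 0.80, 0.76 and 0.72). Between 2.82% and 12.8% of the antibody-high pixels were among them. The shares of CD49d-ITGA4, NK-1.1-KLRB1, FCER1A, Notch1, Folate-Receptor and Ly-6A-E were lower in 4 of 4 sections. For Notch1 both readouts were lower. For the integrin CD49d the antibody share was lower by a mean of -0.21 while its transcript Itga4 had 37.9 against 31.1, 47.0 against 21.98, 56.8 against 31.9 and 58.3 against 14.3 CPM and rose by log2 1.04 ± 0.23.

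**Figure D4:**
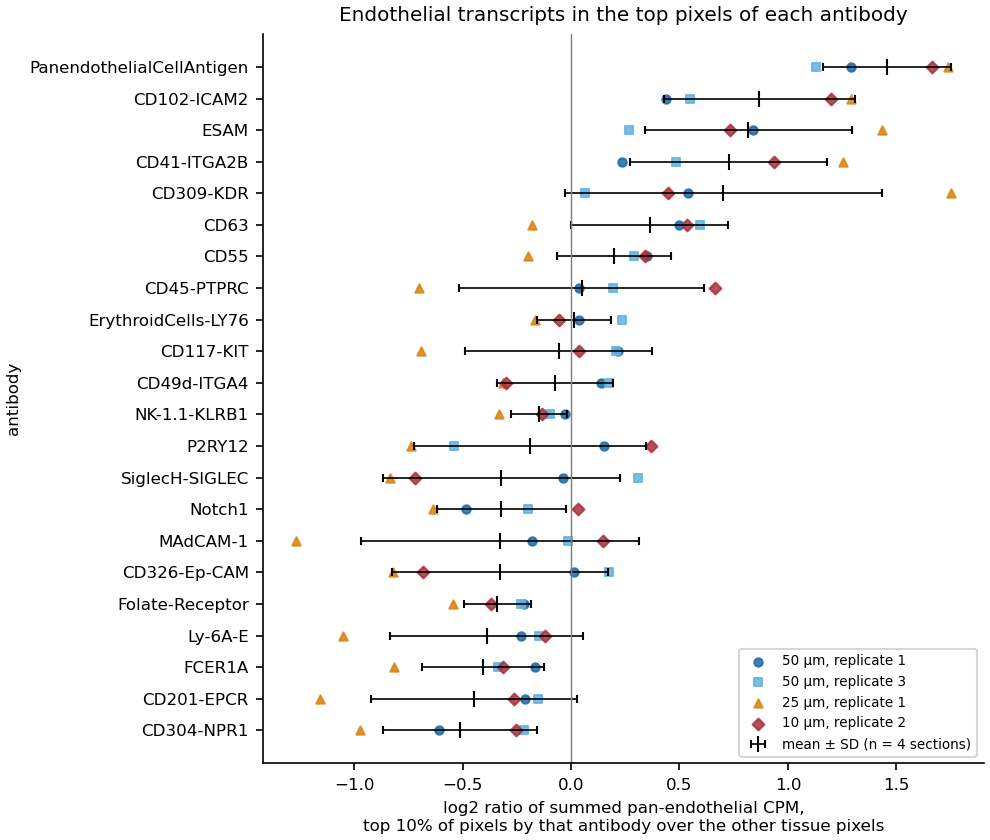
Log2 ratio of the summed pan-endothelial CPM in the top 10% of pixels by each of 22 antibodies over the other tissue pixels of the section, with 1 coloured point for each section and the mean ± SD in black. The panendothelial antibody has the highest mean, 1.46, and CD304-NPR1 the lowest, -0.51.

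Taking the top 10% of pixels by each antibody in turn, the panendothelial antibody gave the highest pan-endothelial transcript sum, with a mean log2 ratio of 1.46 ± 0.29 (SD, n = 4). CD102-ICAM2 (0.87 ± 0.44), ESAM (0.82 ± 0.48), CD41-ITGA2B (0.73 ± 0.45) and CD309-KDR (0.70 ± 0.73) came next, and whether these neighbours in the order differ was not tested. The top pixels of the KDR antibody had nearly the same ratio as the antibody-high pixels in the 25 µm section (1.75 against 1.74) and a far lower one in 50 µm replicate 3 (0.06 against 1.13). Between 11.4% and 35.6% of the antibody-high pixels were also top pixels of the KDR antibody, and 18.6% to 45.2% were top pixels of CD102-ICAM2. The antibody against neuropilin-1, CD304-NPR1, stood last at -0.51, although the transcript of that receptor, Nrp1, was higher in the antibody-high pixels.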

How the data were processed

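Counts were deposited by the authors as 1 table of pixels by genes, or pixels by antibodies, for each library, with whole-number counts per pixel that were not normalized. Per the submitters' processing notes, CASAVA 1.8.2 and build GRCh38 were named, with no role given. The build is human while the samples are mouse. How reads were aligned and counted, and whether strand was used, is not given in the sources used here. Pixels were matched between the 2 libraries of a section by their grid position, and the 2 libraries by the date part of their titles.

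Counts of antibody-high and other tissue pixels were summed per section, giving 8 sums of 123333 to 10529782 transcripts. They were fitted in edgeR 4.0.16 under R 4.3.3 (filterByExpr by pixel class, TMM, robust glmQLFit, glmQLFTest), with section as a block because both sums come from 1 section, on 3 residual degrees of freedom, two-sided, with Benjamini-Hochberg adjustment over 10504 genes. The fit was checked on simulated data with 1 variance setting for all genes and the same change in every section. There it called 84.2% of genes changed by 1 on the log2 scale, 13.7% of those changed by 0.5 and 0.020% of unchanged genes. That check cannot show how the fit handles changes that differ between sections. CPM are per 1000000 counts of the unnormalized sum. Named genes were Pecam1, Cdh5, Plvap, every called gene of the lists, and up to 12 genes per direction with the largest change, the same direction in all 4 sections and a mean CPM of at least 10. One of the called list genes is not reported here by name. The lists and the choice of pixels were made with earlier results of these data known. DESeq2, other rankings, thresholds, filters and normalizations, and the removal of each section were tried. Transcript libraries of other stages, or with no antibody library analysed here, were not compared. Promoters are RefSeq windows of GRCm38.p6, which hold none for Cdh5, Pecam1 or Plvap.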

Additional observations from a re-analysis of the deposited data

Results flagged for a closer look

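Several genes had 1 section apart from the other 3 in the log2 ratio of antibody-high to other pixels, and chance alone sets a section apart in about 1 in 20 such groups. The 25 µm section stood apart for Fli1 (0.44), Notch1 (-1.63), Twist1 (-1.07), Megf10 (-4.95) and Syt7 (-4.64). Megf10 and Syt7 had 0 antibody-high counts there, so those ratios depend on the prior of 1 count and give no size. The 10 µm section stood apart for Pax3 (1.501, from 1 antibody-high count against 3), Itgb8 (-2.50) and the median of the 2 tested tip cell genes (-1.04). One of the latter, Cxcr4, had 0 antibody-high counts there, so that median depends on the prior as well.

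In other results both 50 µm sections moved one way and both finer sections the other. The mean log2 ratio at 50 µm minus that in the finer sections was 1.88 for Ttr, 0.99 for the median of the liver list, 1.71 for that of the epithelium list and -2.56 for that of the muscle and somite list. These differences were not tested, and these lists rest on 1 to 3 tested genes.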

How the results depend on the processing

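Of 515 genes called, RLE normalization, no globin genes in the totals, a tissue threshold of 0.05 or 0.2, the top 20%, 5 bins of antibody total and division by row and column medians gave 359 to 578. The top 5% gave 250 (187 higher, 63 lower) with a pan-endothelial median log2 fold change of 1.79 beside 1.45, 5 bins of transcript total 316 (66 lower) and DESeq2 278 (234 higher, 44 lower). Calls lower in antibody-high pixels were 74 after division by row and column medians, 99 at a tissue threshold of 0.2 and 263 of 540 with no filter on low counts, where 277 were higher. Ranking by panendothelial counts gave 1 call (0 higher, 1 lower), 0 of the pan-endothelial genes (median 0.46) and 467 genes at an unadjusted p under 0.05. Chosen after seeing the data, ranking within 5 bins of globin share gave 43 calls (39 higher, 4 lower) and 10 pan-endothelial genes (median 1.08), at least 500 antibody counts gave 503, and leaving out grid lines with over 30% of tissue pixels antibody-high gave 386 (92 lower) and 17 of 18 pan-endothelial genes.

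The 2 sums of a section are paired by the section they come from. With no replicate block edgeR called 0 genes (0 higher, 0 lower, 0 pan-endothelial), with 456 at an unadjusted p under 0.05 and a pan-endothelial median of 1.53. Leaving out 1 section gave 244 to 565 calls (192 to 401 higher, 51 to 164 lower) and 15 to 20 pan-endothelial genes. The fit on 3 sections has 2 residual degrees of freedom.

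The transcript total per pixel, -0.42 on the log2 scale, was -0.20 within 5 bins of antibody total, -0.073 within 5 bins of transcript total and 0.68, reversed, under ranking by counts, and -0.46 to -0.38 leaving out 1 section.

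Of 105 named genes, 21 kept their call under every alternative except the unblocked fit and the ranking by counts, which kept none. Under the ranking by counts Eng (-0.23), Npr3 (-0.26), Nrp1 (-0.016), C1qb (-0.26), Ttr (-0.87), Hes5 (0.17), Pdgfra (-0.22), Pax3 (0.032), Fzd8 (0.21) and Megf10 (0.052) reversed. Nefm reversed after division by row and column medians (0.025) and Slc4a1 within 5 bins of globin share (-0.077). The cause was not tested for any of these. At 8.11 CPM a count, the 25 µm section limits single genes.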
